A study of Mus musculus with 6 samples.

Results

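The 9 genes of the RFX system described here, of 33084 genes counted, were followed in the forebrain of wild-type (wt) and Dyrk1a heterozygous mouse embryos. They are the regulatory factor X genes Rfx1, Rfx2, Rfx3, Rfx4, Rfx5 and Rfx7, the genes Rfxap and Rfxank for the non-RFX subunits of the class II complex, and Ciita for the class II coactivator. The set was chosen by the measured difference in Rfx5, which was among the clearest between these same libraries of the genotypes, so the difference in Rfx5 is described here and is not offered as a test; the other 8 entered by family or complex. Of the 9 members, 8 passed the filter on low counts and entered the fit of 19403 genes, and Ciita did not.

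RFX proteins share a winged-helix DNA-binding domain and bind the X box, an imperfect inverted repeat. RFX1, RFX2, RFX3 and RFX4 are known as regulators of cilia genes, and in the developing brain RFX3 and RFX4 are tied to ciliated cells and to patterning of the midline. RFX5 works in a different setting: with RFXAP and RFXANK it occupies the X1 box of promoters of the major histocompatibility complex (MHC), next to NF-Y on a CCAAT box and factors of the CREB family, and class II genes are transcribed only once CIITA joins this platform. RFX7, the relative nearest to RFX5, is known in human cells as an activator of growth-restraining genes.

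The samples were embryonic day 15.5 forebrains, 3 wt and 3 carrying 1 inactivated copy of Dyrk1a (Dyrk1a+/-), a gene for a protein kinase. The labels call the 3 libraries of each genotype biological replicates and do not say which part of Dyrk1a is removed, which promoter or cross was used, or whether embryos were pooled. No agent was given in either group. Bulk tissue was sequenced, so fewer cells of a type and less RNA per cell cannot be told apart.

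Totals ran from 18699434 to 32865708 counts per library. Dyrk1a itself stood at 177, 186 and 160 CPM (counts scaled to a common library size) in wt replicates 1, 2 and 3 and at 149, 147 and 158 CPM in the Dyrk1a+/- replicates. The log2 difference was -0.20 (SE 0.08), with an unadjusted p of 0.0306 and an adjusted p of 0.59 by edgeR. Dyrk1a did not overlap between genotypes, and 7.49% of all genes tested likewise had every Dyrk1a+/- library below wt. Eomes, a gene of cortical intermediate progenitors, averaged 69.9 CPM in wt and 83.4 CPM in Dyrk1a+/-, whereas the midbrain and hindbrain gene En1 had 32 counts over all 6 libraries and Hoxa2 had 2. Of the midbrain and hindbrain genes listed, only Gbx2 passed the low-count filter. Gbx2 averaged 7.05 CPM in wt and 8.46 CPM in Dyrk1a+/- (log2 difference 0.26, SE 0.16). In wt replicate 3 and Dyrk1a+/- replicate 2 the RNAs 7SK, RNase P and RNase MRP made up 4.46% and 4.0% of the total. Their share of the other 4 libraries ran from 2.57% to 3.01%. These libraries stood apart together across genotypes.

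Rfx5 was higher in every Dyrk1a+/- library than in every wt library. Its level was 33.7, 30.9 and 31.5 CPM in wt replicates 1, 2 and 3, and 56.6, 59.4 and 58.6 CPM in Dyrk1a+/- replicates 1, 2 and 3. The means were 32.0 ± 1.47 CPM (SD, n = 3) in wt and 58.2 ± 1.44 CPM (SD, n = 3) in Dyrk1a+/-. Spread within a genotype was small beside the gap between the genotypes, as the plot of CPM by library shows. The ratio was 1.82-fold (95% interval 1.62 to 2.04), a log2 difference of 0.86 with SE 0.07. Between the libraries high in 7SK, 1 of each genotype, the log2 difference was 0.915, and among the other 4 it was 0.835. With any single library left out it lay between 0.83 and 0.90. Rfx5 was chosen for its difference in these same libraries, so these values describe that difference and do not test it.

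**Figure D1:**
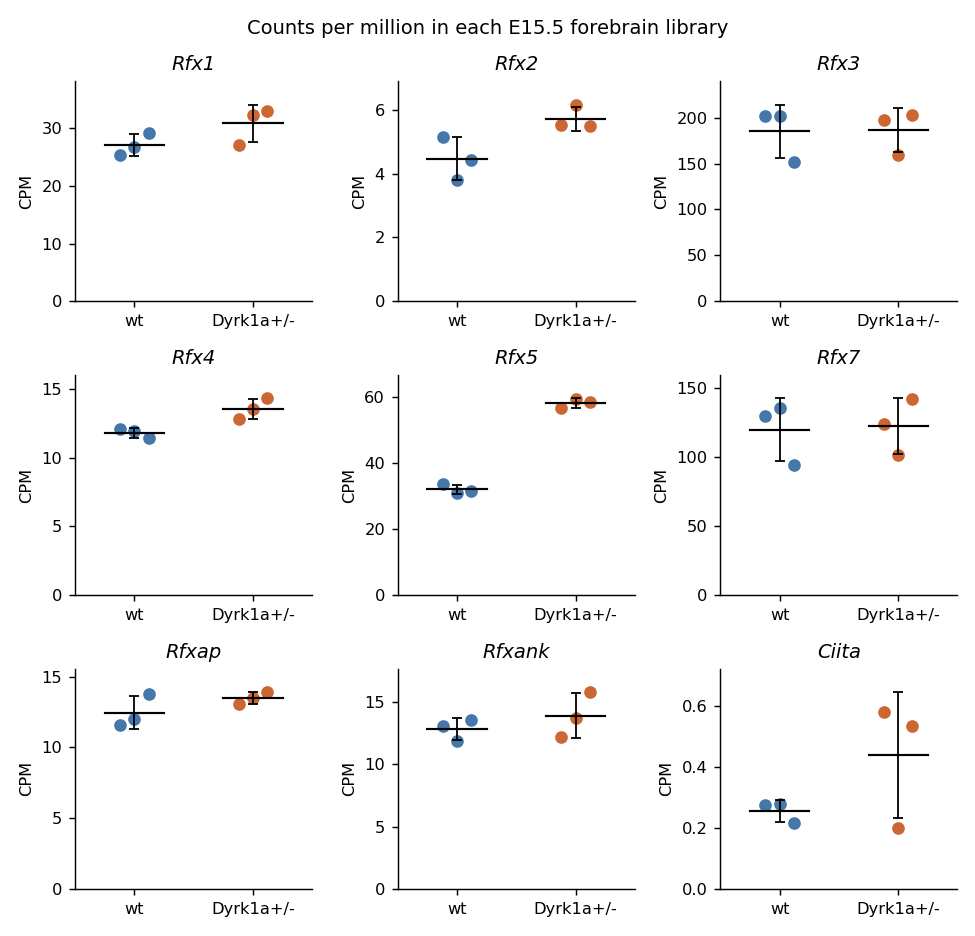
Each panel shows 1 gene, with CPM on the vertical axis from 0 and each point 1 library (wt blue, Dyrk1a+/- orange); horizontal lines are group means and error bars the SD over 3 libraries. Rfx5 moves from 32.0 to 58.2 CPM with no overlap, while the lowest point of each group of Rfx3 and Rfx7 is a library high in 7SK.

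Rfx5 (ENSMUSG00000005774) occupies chr3:94954075-94961561 on the plus strand of GRCm38 and has 17 annotated transcripts. The bases just upstream are shown because Rfx5 is the member that differed. The 217 bases before the annotated start of the gene, chr3:94953858-94954074 (plus strand, RefSeq promoter table, GRCm38.p6), read 5′ to 3′ with CCAAT in capitals:
Rfx5 upstream: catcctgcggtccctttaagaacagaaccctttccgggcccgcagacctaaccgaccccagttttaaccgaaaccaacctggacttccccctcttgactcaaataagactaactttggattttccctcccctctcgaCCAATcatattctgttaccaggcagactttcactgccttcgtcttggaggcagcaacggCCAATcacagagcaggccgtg
CCAAT, the letters that NF-Y recognises, was searched on both strands as CCAAT or ATTGG after the Rfx5 values were known. It begins 80 and 21 bases before the annotated start of Rfx5, which lies 33 bases before the RefSeq start of the promoter table. The first 217 bases of each gene's window in that table, which end 33 bases short of its RefSeq start, were searched alike. They hold CCAAT on either strand in 34.1% of all genes of the table, so its presence is common. B230398E01Rik overlaps Rfx5 on the opposite strand, and it drew 29 counts over all libraries against 6506 for Rfx5.

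Within 250 kb of Rfx5, 18 genes were tested, and none had a difference as large as that of Rfx5, which was chosen for its difference. Of the 18, 13 were higher in Dyrk1a+/-, beside 51.2% of all genes tested, and 5 were lower. Their median log2 difference was 0.05, and none passed the threshold. That median ran from -0.002 without Dyrk1a+/- replicate 2 to 0.15 without wt replicate 3. The largest of these differences in size was that of Tmod4, at -0.67 (SE 0.53), named after its value was seen. On the left, Selenbp1 at 9.32 kb was at -0.07, Psmb4 at 67.1 kb was at 0.03 and Pogz at 71.7 kb was at 0.03. To the right of Rfx5, Pi4kb at 13.2 kb was at 0.04, A730011C13Rik at 32.8 kb was at 0.21 and Gm15265 at 37.2 kb was at 0.24. These 6 values lie far below the 0.86 of Rfx5. At unadjusted p under 0.05 stood 1 neighbour within 250 kb, Gabpb2 at 0.22, chosen after its value was seen. Within 1000 kb 68 genes were tested, with 47 higher and 21 lower, a median of 0.06 and none past the threshold. Of these 68 genes, 4 stood at unadjusted p under 0.05, all higher, and the largest value was 0.80.

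The non-RFX subunits that complete the RFX5 complex stayed close to their wt values. Rfxap, for the acidic subunit, was at 11.6, 12.0 and 13.8 CPM in wt and at 13.1, 13.5 and 13.9 CPM in Dyrk1a+/-, with overlapping groups. Its log2 difference was 0.12 (SE 0.11, 95% interval -0.13 to 0.37). Rfxank, for the ankyrin-repeat subunit, was at 13.1, 11.9 and 13.6 CPM in wt and at 12.2, 13.7 and 15.8 CPM in Dyrk1a+/-, again overlapping. For Rfxank the log2 difference was 0.11 (SE 0.13, 95% interval -0.17 to 0.40). On GRCm38 Rfxap lies at chr3:54803115-54807791 (minus strand) and Rfxank at chr8:70130794-70139154 (minus strand). Both 95% intervals end below the lower bound of the Rfx5 interval, 0.69, which is a description only, since Rfx5 was chosen for its difference. Nr2c2ap overlaps Rfxank on the opposite strand with 1009 counts against 2001, and without a known strand setting their reads cannot be told apart.

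Ratios between the transcripts of the complex were computed in each library. Per kilobase of exon, the ratio of Rfx5 to Rfxap was 1.18, 1.05 and 0.934 in the wt libraries and 1.76, 1.79 and 1.72 in the Dyrk1a+/- libraries. Against Rfxank, the ratio of Rfx5 was 1.86, 1.87 and 1.66 in wt and 3.34, 3.12 and 2.67 in Dyrk1a+/-. Neither ratio overlapped between genotypes, which follows from the difference in Rfx5 that chose the set and is given as a description.

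Ciita, the coactivator that switches class II genes on, was near the floor of detection. It drew 9, 7 and 6 counts in wt replicates 1, 2 and 3 and 12, 5 and 10 counts in Dyrk1a+/- replicates, or 49 counts in all. In CPM this is 0.275, 0.278 and 0.215 in wt and 0.580, 0.201 and 0.533 in Dyrk1a+/-. Dyrk1a+/- replicate 2 was the lowest of all 6 and the other Dyrk1a+/- libraries the highest, so the genotypes overlap. At this depth no difference in Ciita was detectable. Ciita lies at chr16:10480059-10528418 (plus strand) on GRCm38. Dexi overlaps Ciita on the opposite strand and drew 2241 counts, so that the few Ciita counts may include reads of another gene. Among RFX genes outside the set, Rfx6 drew 3 counts and Rfx8 35 counts over all libraries.

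Rfx1 and its relatives Rfx2 and Rfx4 had smaller log2 differences than Rfx5. On GRCm38 Rfx1 lies at chr8:84066834-84096992 (plus strand), Rfx2 at chr17:56775897-56831013 (minus strand) and Rfx4 at chr10:84756062-84906538 (plus strand). Rfx2, which together with Rfx3 serves cilia genes, was the lowest expressed of them at 5.16, 3.81 and 4.44 CPM in wt and 5.51, 6.16 and 5.50 CPM in Dyrk1a+/-. Every Dyrk1a+/- value of Rfx2 lay above every wt value, by a log2 difference of 0.35 (SE 0.16, 95% interval 0.002 to 0.706). Rfx4, known from radial glia and the dorsal midline, was at 12.1, 11.9 and 11.4 CPM in wt and 12.8, 13.5 and 14.3 CPM in Dyrk1a+/-. It too did not overlap, with a log2 difference of 0.20 (SE 0.10, 95% interval -0.03 to 0.43). Groups that did not overlap with Dyrk1a+/- on top were seen in 6.53% of all genes tested, and the reverse order in 7.49%. Rfx1, a broadly expressed member that can activate or repress, was at 25.3, 26.8 and 29.2 CPM in wt and 27.2, 32.4 and 33.1 CPM in Dyrk1a+/-. Its lowest Dyrk1a+/- library lay inside the wt range, and its log2 difference was 0.19 (SE 0.10, 95% interval -0.04 to 0.43).

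Rfx3 and Rfx7, the members with the most counts, differed along the library split within each genotype. Rfx3 was at 202, 202 and 152 CPM in wt replicates 1, 2 and 3, and at 197, 159 and 203 CPM in Dyrk1a+/- replicates 1, 2 and 3. Rfx7 was at 130, 136 and 94.2 CPM in wt and at 124, 102 and 142 CPM in Dyrk1a+/-. In both genes the low library of each genotype was the one high in 7SK. On the log2 scale Rfx3 was at -0.41 in that wt library relative to the other wt libraries and at -0.34 in the Dyrk1a+/- one. For Rfx7 the corresponding differences were -0.50 and -0.37. The Pearson correlation of log2 CPM between Rfx3 and Rfx7 was 0.97 over the 6 libraries, which share this split. Rfx3 lies at chr19:27761721-28011166 (minus strand) and Rfx7 at chr9:72532240-72622937 (plus strand). Their genes span 249 kb and 90.7 kb, and the part of the library split in their values was not tested.

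Between genotypes the log2 difference was 0.01 for Rfx3 (SE 0.13, 95% interval -0.29 to 0.31) and 0.03 for Rfx7 (SE 0.16, 95% interval -0.32 to 0.38). The direction of both depended on single libraries: without wt replicate 3 the values were -0.12 for Rfx3 and -0.12 for Rfx7. Gm37105, annotated on the same strand inside Rfx7, drew 4601 counts, so that part of the Rfx7 signal may be assigned to it.

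Across the 8 tested members, 8 had a log2 difference above 0, against 51.2% of all genes tested, with a median of 0.15 against 0.005. These figures are a description only. They include Rfx5, which chose the set, and Rfx3 and Rfx7, whose direction depended on single libraries. By edgeR's quasi-likelihood test with Benjamini-Hochberg adjustment over all genes, 1 of the 8 was called, Rfx5, where 0.0103% of genes were called overall and 0.00515% in each direction. Nothing is read from that count, since Rfx5 chose the set. Adjusted p of the other 7 members ran from 0.632 for Rfx2 to 0.993 for Rfx3. Of the 8, 2 stood at unadjusted p under 0.05, Rfx2 and Rfx5, where 7.88% of all genes did so, 3.27% with the higher value in Dyrk1a+/- and 4.61% with the lower. The Rfx5 call was lost when wt replicate 1, wt replicate 2, Dyrk1a+/- replicate 1 or Dyrk1a+/- replicate 3 was left out, with adjusted p of 0.149, 0.108, 0.22 and 0.0903 by the same edgeR test.

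**Figure D2:**
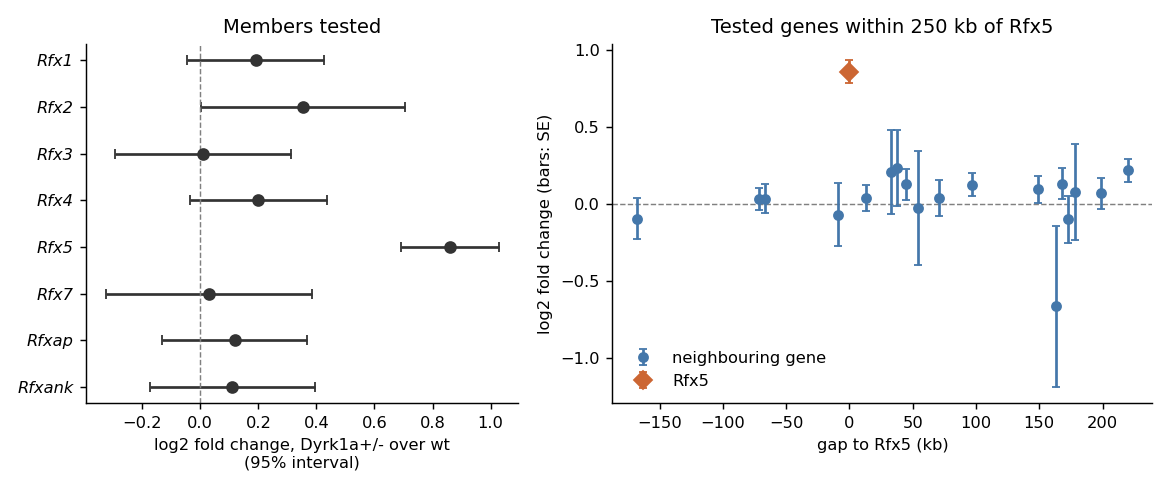
The left panel gives the log2 fold change of Dyrk1a+/- over wt with its 95% interval for the 8 tested members; the right panel gives the same quantity with SE bars for genes within 250 kb of Rfx5, against their gap to Rfx5 in kb (negative values to the left). Rfx5 sits at 0.86, above the intervals of Rfx1, Rfx2, Rfx3, Rfx4, Rfx7, Rfxap and Rfxank, and the nearest neighbours lie between -0.07 and 0.24.

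Members differed widely in level per kilobase of exon (RPKM, which is CPM divided by exon length in kilobases). In wt, Rfx3 led at 16.8 ± 2.65 RPKM (SD, n = 3), followed by Rfx7 at 7.85 ± 1.48 RPKM. Rfx5 at 5.83 ± 0.267 RPKM and Rfxap at 5.56 ± 0.51 RPKM came next and overlapped each other. Below them stood Rfx1 at 4.22 ± 0.303, Rfxank at 3.25 ± 0.219 and Rfx4 at 2.49 ± 0.0776 RPKM. Rfx2 at 0.611 ± 0.0923 and Ciita at 0.0268 ± 0.00371 RPKM closed the order. In wt 7 of the 8 neighbouring pairs did not overlap between libraries, and Rfx5 with Rfxap was the exception. The wt order thus runs from the ciliary regulator Rfx3 at the top to the class II coactivator Ciita at the bottom.

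In Dyrk1a+/- Rfx5 stood at 10.6 ± 0.263 RPKM (SD, n = 3), behind Rfx3 at 16.9 ± 2.19 and ahead of Rfx7 at 8.02 ± 1.31 RPKM. The ratio of Rfx5 to Rfx7 was 0.721, 0.632 and 0.93 in the wt libraries and 1.27, 1.62 and 1.15 in the Dyrk1a+/- libraries. This exchange of places depends on the length used. With the longest transcript in place of merged exons, the same ratio was 0.465, 0.408 and 0.6 in wt and 0.822, 1.04 and 0.739 in Dyrk1a+/-, so Rfx5 passed Rfx7 in Dyrk1a+/- replicate 2 alone. With that length Rfx1, at 6.5 RPKM in wt, also moved ahead of Rfxap, at 5.76 RPKM, and 4 neighbouring pairs did not overlap.

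**Figure D3:**
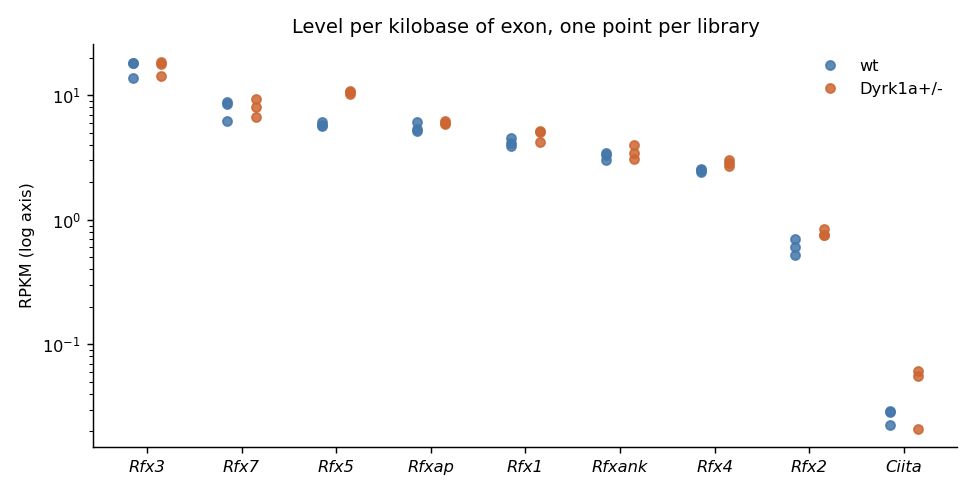
Each point is 1 library, with RPKM on a log axis and members in their wt order (wt blue, Dyrk1a+/- orange). Levels span from 16.8 RPKM for Rfx3 to 0.0268 RPKM for Ciita in wt, and Rfx5 moves from 5.83 to 10.6 RPKM.

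The genes that RFX5 serves were looked at next. Among 8 class II genes with an entry in the RefSeq promoter table, the X1 box was searched as CCNAGNN followed directly by ACNGATG, on both strands, from 250 bases before to 50 after each start site. An exact match was found in 1 of the 8, H2-DMb1, and in 0.0666% of all genes of the table. With 1 mismatch allowed, 5 of the 8 class II genes and 8 of 13 class I genes matched, or 62.5% and 61.5%, against 2.3% of all genes. Sites of both kinds are shown so that the class II form can be set beside the form at Tap1. Of the class I sites only the 1 shared by Tap1 and Psmb9 is shown. H2-DMb1 matches exactly, and each of the other sites holds 1 mismatch within its capitals. Each is 5′ to 3′ with the 14 positions compared in capitals, on the plus strand of chromosome 17 (RefSeq promoter table, GRCm38.p6):
H2-DMb1: ggtttaCCTAGTAACTGATGatgcta
H2-DMb2: ggtttaCCTATTAACCGATGatgcta
H2-Eb1: tctctaACTAGCAACTGATGatgctg
Tap1 and Psmb9: aatctgCCCAGAGACAGGTGacgaca
The H2-DMb1 site lies at chr17:34153087-34153112 and begins 98 bases before the start site. H2-DMb2 has its site at chr17:34145116-34145141, and H2-Eb1 at chr17:34305766-34305791. Tap1 and Psmb9 share the window at chr17:34187452-34187477, 98 bases before the start of Tap1 and 141 before that of Psmb9. A match to these letters is a description of the sequence and not evidence of binding.

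Class II genes themselves were barely transcribed in either genotype. Of 12 on the list, 10 were in the table and 2 passed the low-count filter. H2-Aa drew 20 counts over all 6 libraries, H2-Ab1 21, H2-Eb1 24 and the invariant chain gene Cd74 26. The 2 tested genes encode chains of the peptide-loading chaperone of class II. H2-DMa was at 2.20, 3.25 and 3.73 CPM in wt and 2.13, 3.38 and 4.91 CPM in Dyrk1a+/-, a log2 difference of 0.18 (SE 0.31) with overlapping groups. H2-DMb2 was at 1.04, 1.39 and 0.501 CPM in wt and 1.40, 0.523 and 1.28 CPM in Dyrk1a+/-, a log2 difference of 0.11 (SE 0.45), again overlapping. H2-DMb2 followed the library split: the libraries high in 7SK were at -1.23 in wt and -1.33 in Dyrk1a+/- on the log2 scale relative to the others. Summed over the list, class II genes came to 4.36 to 5.43 CPM in wt and 4.44 to 7.10 CPM in Dyrk1a+/-. No difference in class II transcripts was detectable at this depth.

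The pathway that induces Ciita was read from a list of 10 genes, which also holds Socs1, a suppressor of this signalling, and Nlrc5, the class I counterpart of Ciita. Ifng, the cytokine that induces it, was at 0 counts in all 6 libraries. Of 9 genes tested, 4 were higher and 5 lower in Dyrk1a+/-, with a median log2 difference of -0.003 and none at unadjusted p under 0.05. The lowest p values belonged to the receptor chain gene Ifngr2 at -0.12, the kinase gene Jak1 at -0.11 and the receptor chain gene Ifngr1 at -0.10. Socs1 was at 0.21 (SE 0.36). Nlrc5 was at 0.824, 0.992 and 1.61 CPM in wt and 1.11, 1.41 and 1.01 CPM in Dyrk1a+/-, a log2 difference of 0.06 (SE 0.31). These 2 genes are among the 4 counted as higher. With wt replicate 3 and Dyrk1a+/- replicate 2 the highest of their genotypes, Nlrc5 also followed the library split.

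Partners that share class II promoters with RFX5 had mean wt levels from 8.47 CPM for Atf1 to 537 CPM for Smarca4. All 11 on the list were tested, and 10 were higher in Dyrk1a+/-, beside 51.2% of all genes. Their median log2 difference was 0.13, beside 0.005 over all genes, with values from -0.001 to 0.22. Forebrain progenitor and neuron markers had 9 of 10 higher and a median of 0.14. At unadjusted p under 0.05 stood 1 of the 11 partners, where 3.27% of all genes did so with the higher value in Dyrk1a+/-. It was the acetyltransferase gene Kat2b, at 35.7, 38.6 and 31.8 CPM in wt and 44.2, 38.7 and 40.8 CPM in Dyrk1a+/- (log2 difference 0.22, SE 0.10). The NF-Y subunit genes Nfyb at 0.14 (SE 0.07) and Nfya at 0.13 (SE 0.08) came next. No partner was called, and each of these 3 differences was far smaller than that of Rfx5.

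Class I genes, which the RFX5 complex also serves, were split: 6 of the 12 tested were higher and 6 lower, with a median of -0.04. That median ran from -0.19 without wt replicate 3 to 0.04 without Dyrk1a+/- replicate 3. Tap1, for a subunit of the transporter that feeds peptides to class I, stood out within the list. It was at 2.04, 1.39 and 2.54 CPM in wt and 3.96, 4.47 and 3.89 CPM in Dyrk1a+/-, so that the genotypes did not overlap. Means were 1.99 ± 0.579 and 4.11 ± 0.313 CPM (SD, n = 3), a log2 difference of 1.04 (SE 0.23). It did not pass after adjustment, at 0.483 by edgeR and 0.0772 by DESeq2. Psmb9, which shares the X1-like site with Tap1, drew 32 counts in all and was not tested. H2-Q6 was at -0.47 (SE 0.24). H2-D1 was at 9.15, 9.72 and 6.52 CPM in wt and at 8.84, 6.04 and 1.55 CPM in Dyrk1a+/-, and Dyrk1a+/- replicate 3 alone carried the lowest value. Of the tested class I genes with an X1 match at 1 mismatch, Tap1, H2-Q4 at 0.045 and H2-Q7 at 0.136 were higher. H2-D1 at -0.617, H2-Q6 at -0.468, H2-T22 at -0.211 and H2-M3 at -0.109 hold such a match too and were lower. Among all tested genes with an X1 match at up to 1 mismatch, 141 of 288 were higher in Dyrk1a+/- and none was called, with a median of -0.007.

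Ciliary transport genes, the known targets of RFX1 to RFX4, were all measurable. The inverted-repeat X box was searched as GTTNCC and GGNAAC separated by 2 bases of any kind, on both strands, in the same windows. It matched exactly in 4 of 46 ciliary transport and Bardet-Biedl genes (8.7%), in 1 of 37 motile cilia genes (2.7%) and in 0.529% of all genes. With 1 mismatch allowed the shares were 30.4%, 21.6% and 2.89%. Of the 7 members with a promoter entry, none held either motif, exactly or with 1 mismatch. Exact sites upstream of 3 transport genes and 1 motile cilia gene are shown as the form these members recognise, in capitals, 5′ to 3′ on the strand that gives the match (RefSeq promoter table, GRCm38.p6):
Bbs7: gccccgGTTGCCTTGGAAACcggcca
Ttc26: ggcggcGTTGCCGTGGAAACggagct
Mks1: gtctccGTTGCCAGGGGAACgaggca
Ccdc151: cgggcgGTTTCCTTGGGAACgtgggc
The Bbs7 site lies at chr3:36613491-36613516 (minus strand), the Ttc26 site at chr6:38381485-38381510 (plus), the Mks1 site at chr11:87853185-87853210 (plus) and the Ccdc151 site at chr9:22002649-22002674 (minus). Differences of these 4 genes were close to their errors: Bbs7 was at -0.02 (SE 0.11), Ttc26 at 0.11 (SE 0.09), Mks1 at 0.04 (SE 0.13) and Ccdc151 at -0.01 (SE 0.14) on the log2 scale.

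All 52 ciliary transport and Bardet-Biedl genes were tested, with 38 higher and 14 lower, beside 51.2% of all genes higher, and a median log2 difference of 0.05. At unadjusted p under 0.05 stood 2 on each side, or 2 of 52 each way, beside 3.27% of all genes higher and 4.61% lower. The kinesin gene Kif17 was at -0.51 (SE 0.18), the transition zone gene Cep290 at 0.26 (SE 0.10) and the kinesin gene Kif3b at -0.18 (SE 0.07). Bbs12, the fourth of these, was at 0.32. The 14 genes with an X box at up to 1 mismatch had a median of 0.06 and 11 higher, and the 32 without had a median of 0.02 and 22 higher. Over all tested genes with such a match, 233 of 453 were higher, with a median of 0.003.

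Motile cilia genes are the other programme served by RFX2 and RFX3. Of 44 tested, 14 were higher and 30 lower, beside 48.8% of all genes lower, with a median of -0.04, and none was called. That median ran from -0.13 without Dyrk1a+/- replicate 1 to 0.01 without Dyrk1a+/- replicate 3. Their master regulator Foxj1 was at 10.6, 10.1 and 9.53 CPM in wt and 9.81, 9.30 and 10.6 CPM in Dyrk1a+/-, a log2 difference of -0.03 (SE 0.11). Among motile cilia genes with a promoter entry, the 8 with an X box at up to 1 mismatch had a median of -0.06 and 1 higher. The 28 without such a match had a median of -0.06 and 9 higher. The dynein gene Dnah12 was at 2.44, 2.62 and 1.29 CPM in wt and 1.06, 0.845 and 0.587 CPM in Dyrk1a+/-, a log2 difference of -1.33 (SE 0.34). It did not overlap and did not pass after adjustment, at 0.483 by edgeR. The next lowest p values belonged to the dynein gene Dnah10 at -0.63 (SE 0.21) and Spag16, of the axoneme's central apparatus, at -0.68 (SE 0.24). Summed choroid plexus and ependyma markers, cells that carry motile cilia, were at 405 to 479 CPM in wt and 327 to 474 CPM in Dyrk1a+/-, with Dyrk1a+/- replicate 3 the lowest, and their part in these values was not tested. The lowest p values of those markers belonged to Aqp1 at -0.33 (SE 0.18), Otx2 at 0.18 (SE 0.12) and Calml4 at 0.31 (SE 0.24).

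Genes reported as targets of RFX7 were read from a list of 12. All 12 were tested and all 12 had a log2 difference above 0, although 5 overlapped between genotypes, with a median log2 difference of 0.28 against 0.005 over all genes. At unadjusted p under 0.05 stood 6 of the 12, against 3.27% of all genes in that direction, and 7 did not overlap between genotypes, against 6.53%. The list was compiled from memory of reports in human cells, with earlier results of these libraries known. Its direction, and all counts and scores drawn from it here, are therefore not independent evidence. By edgeR none was called after adjustment, and DESeq2 called 2, Pik3r3 and Mxd4, where it called 0.17% of all genes.

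Pik3r3, for a regulatory subunit of phosphoinositide 3-kinase, was at 234, 252 and 225 CPM in wt and 301, 305 and 328 CPM in Dyrk1a+/-. Its log2 difference was 0.40 (SE 0.08), with an adjusted p of 0.483 by edgeR and 0.0221 by DESeq2. Mxd4, for a MAX partner that opposes MYC, was at 131, 127 and 141 CPM in wt and 170, 180 and 168 CPM in Dyrk1a+/-. The log2 difference of Mxd4 was 0.38 (SE 0.07), with an adjusted p of 0.483 by edgeR and 0.0296 by DESeq2. Pdcd4, an inhibitor of translation initiation, was at 52.1, 52.2 and 47.3 CPM in wt and 64.1, 62.5 and 72.5 CPM in Dyrk1a+/- (log2 difference 0.39, SE 0.09). In each of these 3 genes the lowest Dyrk1a+/- library exceeded the highest wt library. The other 3 below that p were Ddit4, an inhibitor of mTORC1, at 0.46, the sestrin gene Sesn3 at 0.36 and Pik3ip1, an inhibitor of phosphoinositide 3-kinase, at 0.34.

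Differences varied within the list. Pnrc1 at 0.21 and Tob1 at 0.20 lay between, and Arl15 at 0.03, Abat at 0.03, Maf at 0.02 and Arrdc3 at 0.02 were close to 0. Like Rfx7, 3 of these followed the library split: relative to the other libraries of their genotype, those high in 7SK were at -0.46 and -0.39 for Arrdc3, at -0.41 and -0.68 for Maf and at -0.37 and -0.22 for Arl15, in wt and Dyrk1a+/-. The mean log2 score of the 12, centred over the libraries, was -0.10, -0.07 and -0.19 in wt and 0.14, 0.03 and 0.19 in Dyrk1a+/-, with no overlap. Between the libraries high in 7SK the score differed by 0.22 and among the other 4 by 0.24. With any single library left out, 9 to 12 of the 12 were higher (9 without wt replicate 3), 6 or 7 were at unadjusted p under 0.05 and the median ran from 0.23 to 0.30. Of the 10 targets with a promoter entry none held the inverted-repeat X box, exactly or with 1 mismatch.

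**Figure D4:**
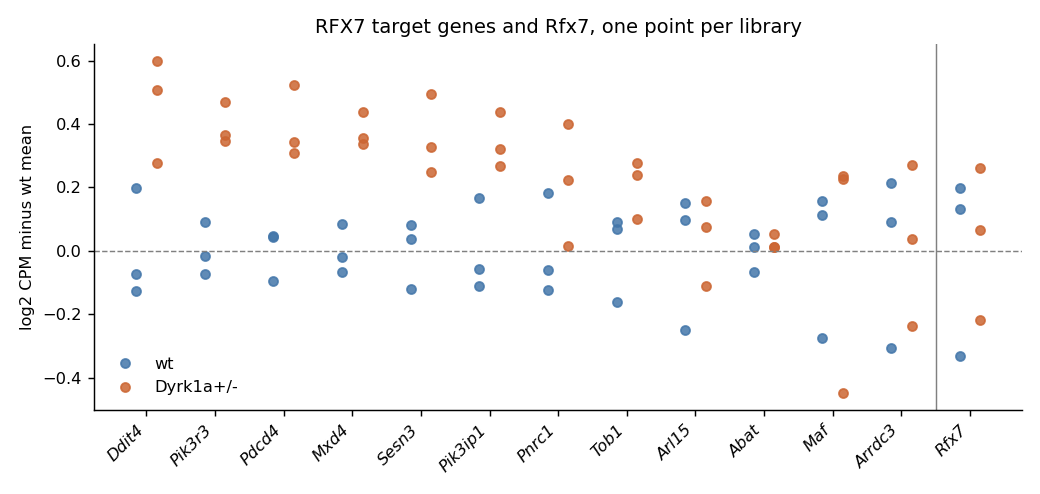
Points are log2 CPM of each library minus the mean of the 3 wt libraries, for 12 RFX7 target genes ordered by fold change and, right of the line, Rfx7 itself (wt blue, Dyrk1a+/- orange). Ddit4 to Pik3ip1 sit 0.34 to 0.46 above wt without overlap, whereas Abat, Arl15, Arrdc3, Maf and Rfx7 overlap.

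Cells that present antigen were checked through their markers, because Ciita and class II genes are known from them. Of 15 microglia markers 4 were higher and 11 lower, with a median of -0.11, or -0.26 without Dyrk1a+/- replicate 2. Cx3cr1 was at 0.13 (SE 0.15), P2ry12 at -0.06 (SE 0.28) and Csf1r at -0.20 (SE 0.12), and the complement genes C1qc at -0.41 and C1qb at -0.41 had the lowest p values, followed by Sall1 at 0.27 (SE 0.15). Their summed level was 119 to 123 CPM in wt and 109 to 129 CPM in Dyrk1a+/-. Of 12 markers of border macrophages and dendritic cells, 8 were tested. In Dyrk1a+/- 7 of the 8 lay lower, beside 48.8% of all genes, with a median of -0.38, and none was called. The summed level of the list was 76.4 to 82.6 CPM in wt and 66.8 to 68.1 CPM in Dyrk1a+/-. Mrc1, the mannose receptor gene of these macrophages, was at 31.5, 28.9 and 30.0 CPM in wt and 26.0, 19.8 and 21 CPM in Dyrk1a+/- (log2 difference -0.44, SE 0.11). Pf4 was at -0.59 and Cd163 at -0.92, and Ccr7, a marker of mature dendritic cells, was at 0 in all libraries. Adjusted p by edgeR was 0.483 for Mrc1, 0.547 for Pf4 and 0.629 for Cd163.

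Of 12 B and T lymphocyte markers 5 passed the low-count filter. Cd8a was at 0.24 (SE 0.30), Pax5 at -0.41 (SE 0.54) and Cd3d, at 1.53 CPM in wt and 1.66 CPM in Dyrk1a+/-, at 0.12 (SE 0.22), whereas Cd3e and Cd3g drew 1 count each over all libraries. The list had a summed level of 9.67 to 11.8 CPM in wt and 9.76 to 12.3 CPM in Dyrk1a+/-. Forebrain progenitor and neuron markers had 9 of 10 higher in Dyrk1a+/-, beside 51.2% of all genes, and a median of 0.14. Their summed level was 768 to 846 CPM in wt and 808 to 925 CPM in Dyrk1a+/-. The lowest p values belonged to Pax6 at 0.29 (SE 0.08), Eomes at 0.26 (SE 0.08) and Lhx2 at 0.27 (SE 0.11). The part of any of these cell types in the Rfx5 value was not tested.

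**Figure D5:**
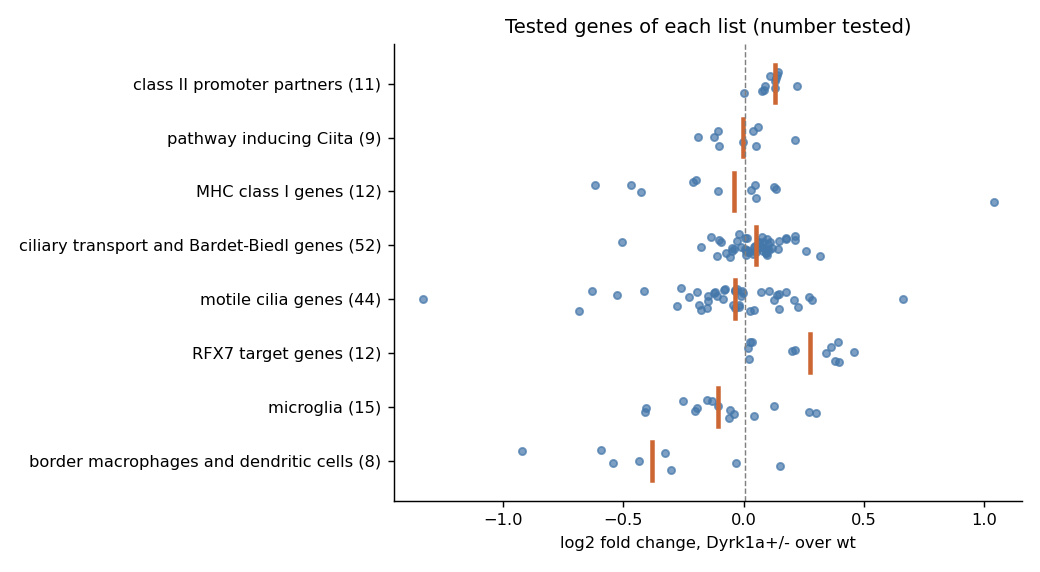
Each blue point is the log2 fold change of Dyrk1a+/- over wt of 1 tested gene, arranged by list with the number tested in brackets; orange bars are list medians and the dashed line is the median of all genes tested. RFX7 targets centre on 0.28 and border macrophage and dendritic cell markers on -0.38, whereas the ciliary lists centre on 0.05 and -0.04.

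Genes whose level followed Rfx5 most closely over the 6 libraries were sought among 16773 genes with a mean of at least 1 CPM. The Pearson correlation of log2 CPM was highest for Gm38252 at 0.993, the mitotic spindle gene Spag5 at 0.989, the tubulin ligase family gene Ttll4 at 0.988, the kinetochore gene Mis12 at 0.987 and Pantr2 at 0.985. Over 0.9 stood 190 genes. The 6 libraries share genotype, so any gene that separates the genotypes without spread scores highly. All 5 were less different than Rfx5, with log2 differences of 0.27 for Gm38252, 0.37 for Spag5, 0.15 for Ttll4, 0.20 for Mis12 and 0.34 for Pantr2. Within the set, Rfx4 was the nearest to Rfx5 at 0.90, followed by Rfx2 at 0.85, while Rfx3 was at 0.04 and Rfx7 at 0.09.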

How the data were processed

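The deposited file holds raw counts per Ensembl gene for 6 libraries. Per the submitters' processing notes, which name bcl2fastq 2.17.1.14, HISAT2, SAMtools 1.9, HTSeq 0.9.1 and GRCm38, the authors aligned and counted single-end reads. The sources used here state neither the annotation release nor the strand setting. The labels name both polyA RNA and a kit for total RNA with ribosomal depletion. Symbols and coordinates came from GENCODE M21 on GRCm38 and matched 32888 of 33084 identifiers.

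Counts were fitted in R 4.3.3 with edgeR 4.0.16 (filterByExpr, TMM factors 0.9944 to 1.0034, quasi-likelihood test, genotype as the only term, Benjamini-Hochberg over 19403 genes, threshold 0.05), with DESeq2 1.42.0 and limma 3.58.1 as alternatives. CPM used TMM-scaled library sizes, and RPKM used merged exon length. Log2 differences are Dyrk1a+/- minus wt, with SE and 95% intervals from the fit. The fitting script was first tested on simulated data.

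Members and lists were chosen with earlier results of these data known. Some genes are not reported here. Named genes are the members, the 3 of lowest p and the defining genes of each list, the 3 nearest neighbours on each side of Rfx5 and the 5 genes most like it. Genes with a shown sequence were named for it, and other list genes (the rest of the RFX7 targets, Bbs12, Nlrc5, Socs1) after their values were seen. Promoter sequences matched 7 of 9 members. A comparison of the proteins' DNA-binding blocks was planned and not run.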

Additional observations from a re-analysis of the deposited data

How the results depend on the processing

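The log2 differences of Rfx1, Rfx2, Rfx4, Rfx5, Rfxap and Rfxank kept their sign in all 15 alternatives. The cause was not tested for any shift given here. Of all genes, 2 were called by edgeR. The count was 4 with no low-count filter, 6 with a term for the libraries high in 7SK, 6 in the other 4 libraries alone, 27 by DESeq2 and 0 to 5 with 1 library left out. Of the members 1 was called, and 0 to 1 with 1 library left out. With the replicate number as a replicate block, 0 genes and 0 members were called and Rfx5 stood at 0.862 (adjusted p 0.245 by edgeR). The labels give only a shared number; deviations of same-numbered libraries correlated at 0.251, -0.412 and -0.177, so the numbers were not taken to pair them.

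Rfx3 changed sign with no low-count filter (-0.001) and in the other 4 libraries alone (-0.010), and with 1 library left out it ran from -0.116 to 0.114. For Rfx7 that range was -0.118 to 0.146. Leaving out 1 library gave medians of -0.098 to -0.002 for the pathway inducing Ciita, -0.193 to 0.044 for class I genes, -0.002 to 0.154 for genes near Rfx5, 0.023 to 0.062 for ciliary transport genes, -0.129 to 0.014 for motile cilia genes, -0.263 to -0.033 for microglia and 0.045 to 0.264 for forebrain markers. In the other 4 libraries alone the medians were -0.262 for microglia and -0.206 for class I genes. With longest transcript length, 4 neighbours in the wt order of members did not overlap in place of 7. With 1 mismatch allowed, the inverted-repeat X box matched 2.89% of genes and the X1 box 2.3%.

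With 3 libraries a genotype the 95% intervals of the 7 tested members other than Rfx5 were between 0.469 and 0.710 wide on the log2 scale. Ciita and most class II genes were too low to test, and intervals do not cover reads shared with overlapping genes.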
